A study of Homo sapiens with 7 samples.

Results

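Heat shock proteins and their J protein partners were examined in NGP, an established human neuroblastoma line that carries MYCN amplification, and in ARID1A mutant lines made from it. The 73 genes were chosen by symbol: the HSPA (HSP70), HSPB (small heat shock protein), cytosolic HSP90 and DNAJA, DNAJB and DNAJC families, together with HSP90B1, HSPD1, HSPE1, HSPH1 and the heat shock factors HSF1 and HSF2. They are 73 of the 28517 named entries of each library's table. RNA sequencing gave 7 libraries: the NGP control, ARID1A-/- line 1 and ARID1A-/- line 2 had 2 each, and a single ARID1A+/- line had 1. ARID1A encodes a DNA-binding subunit of the BAF chromatin remodelling complex, and the study asked how its loss changes the expression state of neuroblastoma cells. All cells, controls included, grew with 10% fetal bovine serum and 0.5 ug/ml puromycin. The first library of the control and of each ARID1A-/- line was prepared by the SMARTer Universal Low Input kit, and its repeat by the KAPA mRNA HyperPrep kit, which also served for the ARID1A+/- line. Each genotype is therefore 1 line, or 2 lines for ARID1A-/-, against 1 control line. The labels do not state whether a line is a single clone, where the mutations lie or whether separate cultures were used for its 2 libraries. The p-values therefore cover only library-to-library spread, which may be technical.

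Heat shock proteins are chaperones that keep newly made or damaged proteins from aggregating and help them fold. HSP70 proteins bind short exposed stretches of a client protein in a cycle driven by ATP: a J protein delivers the client and starts ATP hydrolysis, and a nucleotide exchange factor such as a member of the HSP110 group ends the cycle. HSP90 acts later on partly folded kinases, receptors and other signalling proteins, small heat shock proteins hold unfolded proteins without ATP, and under stress heat shock factors bind heat shock elements in promoters and raise the transcription of many of these genes.

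Library totals lay between 24445301 and 43644361 counts. ARID1A mRNA was at 22.3 and 22.0 RPKM (reads per kilobase of gene length, scaled to the library total) in the control, 16.7 and 17.2 in line 1, 14.2 and 13.8 in line 2, with 19.9 in the ARID1A+/- library. Here and below the SMARTer library of a line is given before its KAPA library. Of the adrenergic neuroblastoma markers, HAND2, GATA3, PHOX2A and MYCN had at least 70.8 RPKM in every library, and TH was at or below 0.456 RPKM. The summed RPKM of 6 fibroblast markers was 80.1 and 80.4 in the control, 191 and 214 in line 1, 46.7 and 41.9 in line 2, with 79.3 in the ARID1A+/- library. COL1A1 was at 60.2 and 62.6 RPKM in the control, 156 and 171 in line 1, 30.3 and 19.9 in line 2, with 17.1 in the ARID1A+/- library, where PDGFRA was higher at 32.7. COL1A2 held at most 6 counts in a library. The markers in the sum did not move together. In line 2, DCN (4.02 and 3.74 RPKM) and LUM (3.25 and 3.42) lay above the control (0.301 and 0.0326 for DCN, 2.04 and 1.72 for LUM). PDGFRB lay below it there (2.27 and 1.75 against 4.07 and 3.58), as COL1A1 did, and PDGFRA overlapped with it. In line 1, LUM was at 17.1 and 17.3 RPKM and DCN at 4.44 and 2.21. Schwann cell, immune, endothelial and erythroid marker sums did not exceed 1.20, 4.97, 0.219 and 0.906 RPKM, with CD3E, PECAM1 and HBB at 0 counts. In bulk RNA, fewer cells of a type and less RNA per cell cannot be told apart.

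The chaperone genes took between 0.813% (control, SMARTer) and 1.35% (line 2, KAPA) of all counts in a library. HSP90AA1, HSP90AB1, HSPA8 and HSPD1 together held between 52.4% and 63.6% of those counts. By mean RPKM over the 6 control and ARID1A-/- libraries the order was HSP90AA1 (687), HSP90AB1 (600), HSPA8 (352), HSPD1 (202), HSPA9 (196) and DNAJA1 (117). The ranges of the 6 libraries overlapped between neighbours in this order, except that every DNAJA1 value lay below every HSPA9 value. At the other end, 14 of the 73 had a mean RPKM under 0.5 and were not tested: HSPA1A, HSPA7, HSPA12B, HSPB2, HSPB3, HSPB6, HSPB7, HSPB8, HSPB9, DNAJA4, DNAJB3, DNAJB8, DNAJB13 and DNAJC22. DNAJB3 had no count in any library. The genes nearest to the limit were HSPB9 (mean 0.456 RPKM) just under it and HSPA6 (mean 0.715 RPKM) just over it.

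**Figure D1:**
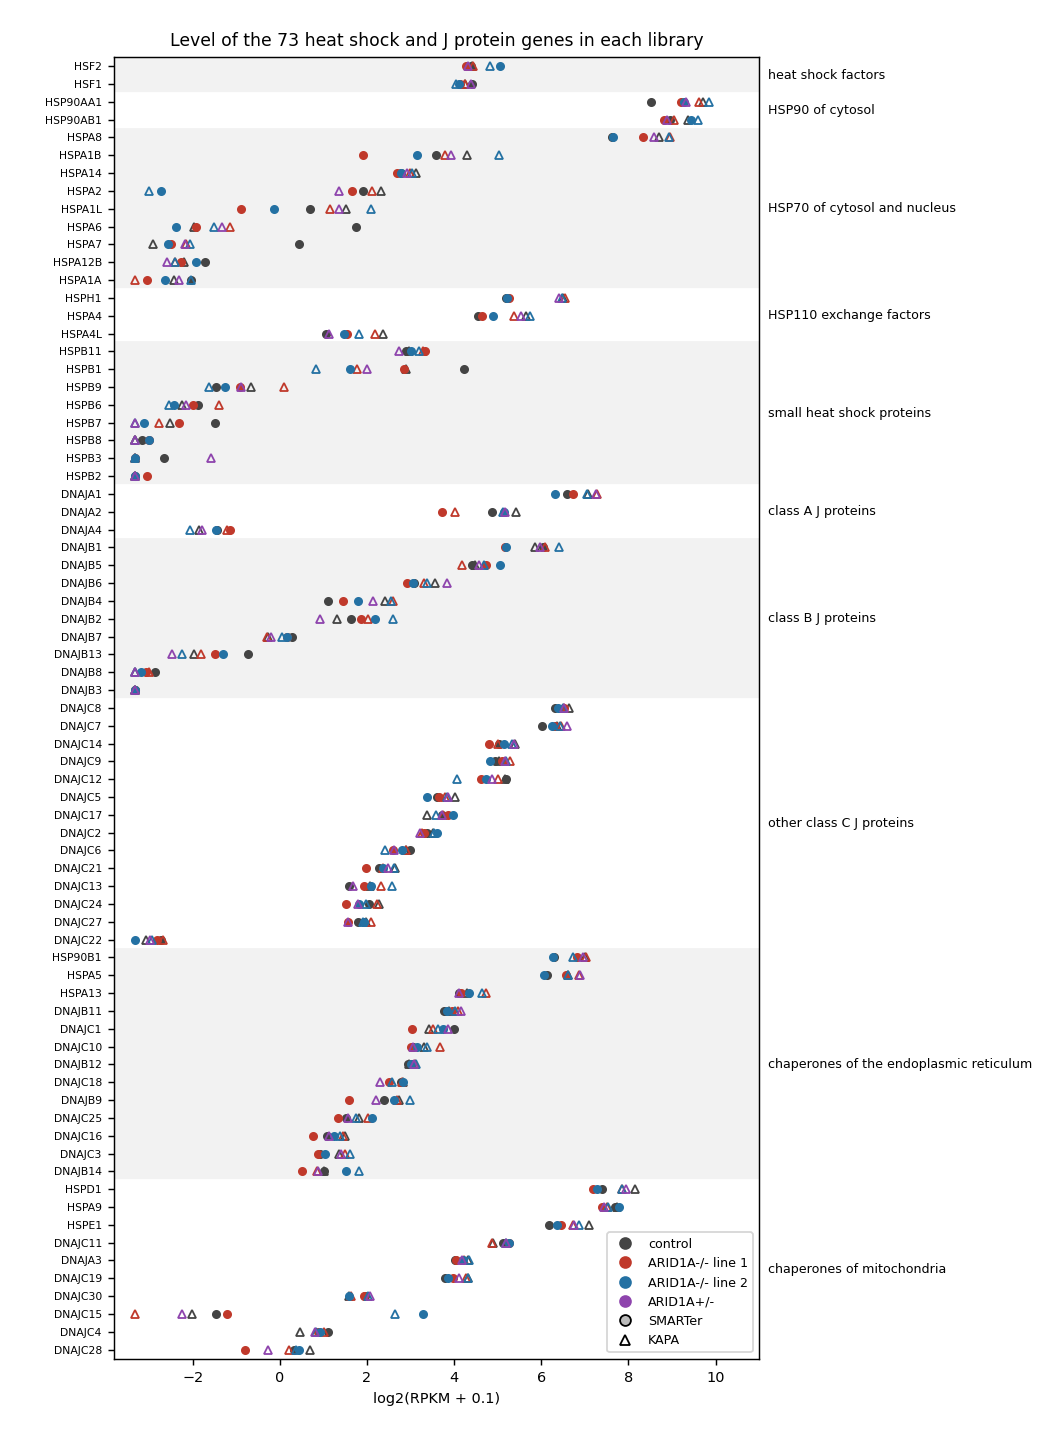
Level of each of the 73 genes in each of the 7 libraries on the log2(RPKM + 0.1) scale, grouped by role; colour gives the line, filled circles the SMARTer and open triangles the KAPA kit. Most genes form tight groups of 7 points, while HSPA2, HSPB1, DNAJA2 and DNAJC15 have 1 line or both lines apart from the control, and HSPA6 and HSPA7 have the control SMARTer library apart from the rest.

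Averaged over both ARID1A-/- lines on the log2 scale and set against control, 3 of the 59 tested chaperone genes fell and 0 rose (edgeR quasi-likelihood test on counts with a term for the kit, Benjamini-Hochberg adjusted p under 0.05 over all 14711 genes tested). The 3 were HSPA2, a testis-enriched HSP70, HSPB1, the most widely studied small heat shock protein, and DNAJA2, a class A J protein that works with HSP70 in refolding. Of all genes tested, 14.2% passed the threshold in this comparison (4.64% higher, 9.57% lower), against 5.08% of the chaperone genes. Their median log2 fold change was 0.02 and that of all genes 0.02, with 30 of 59 above 0. At an unadjusted p under 0.05, 3 were higher and 5 lower by edgeR. DESeq2 called 1 higher and 5 lower, and limma on log2(RPKM + 1) 1 higher and 3 lower. Of all 14711 genes, DESeq2 called 974 higher and 1643 lower, and limma 635 higher and 1016 lower. Leaving out 1 library at a time leaves 1 library in a group and 1 residual degree of freedom. The number called then moved widely, among the chaperone genes and among all genes, lowest without the control SMARTer library and highest without the line 1 KAPA library.

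Each line was also set against the same 2 control libraries. In line 1, 0 chaperone genes rose and 2 fell, DNAJA2 and HSPB1, or 3.39%, against 13% of all genes (4.75% higher, 8.27% lower). At an unadjusted p under 0.05, 4 were higher and 7 lower in line 1 by edgeR, and both DESeq2 and limma called 0 higher. Of all genes, DESeq2 called 939 higher in line 1 and limma on log2(RPKM + 1) 609. In line 2, 4 rose (DNAJC15, DNAJB14, HSF2 and DNAJB2) and 2 fell (HSPA2 and HSPB1), or 10.2%, against 14% of all genes (5.47% higher, 8.52% lower). The direct test of line 1 against line 2 called 7 genes, or 11.9%, with HSPA2 and HSPB1 higher in line 1 and DNAJA2, DNAJC15, DNAJB14, HSF2 and HSPA1B lower, where 12.8% of all genes were called (5.71% higher, 7.1% lower). The 2 contrasts against control share their control libraries, so each gene's values are given side by side below.

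**Figure D2:**
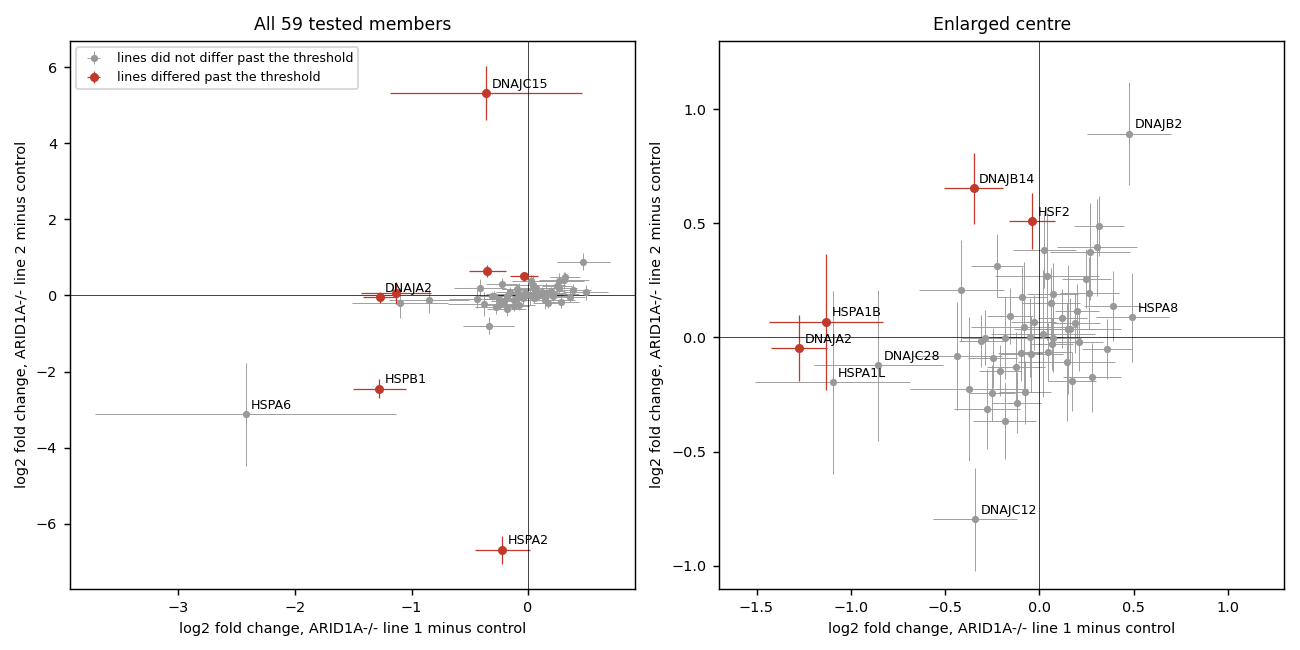
Log2 fold change of the 59 tested genes in ARID1A-/- line 1 (x axis) and line 2 (y axis) against the shared control libraries, with bars of 1 standard error from edgeR; the right panel enlarges the centre. Red points are the 7 genes that differed between the lines past the threshold: HSPA2 sits near 0 in line 1 and at -6.69 in line 2, DNAJC15 at 5.33 in line 2, and DNAJA2 at -1.27 in line 1 and near 0 in line 2.

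The heat shock factors come first, since they act on the promoters of the other genes. HSF1, the main activator of the response to heat, was at 21.0 and 18.8 RPKM in the control, 17.6 and 18.9 in line 1, 17.0 and 16.4 in line 2, with 20.8 in the ARID1A+/- library. The ranges of control and line 1 overlapped, and HSF1 passed the threshold in no comparison (-0.20 ± 0.11 on the log2 scale over both lines, SE; edgeR adjusted p = 0.28). HSF2, a factor better known from development and proteasome stress, was at 20.9 and 21.1 RPKM in the control, 19.3 and 21.4 in line 1, 33.0 and 28.3 in line 2, with 19.7 in the ARID1A+/- library. Both line 2 libraries lay above the other 5. HSF2 rose in line 2 by 0.51 ± 0.12 (log2, higher in 2 of 2 within-kit pairs; edgeR adjusted p = 0.040) and line 1 minus line 2 was -0.55 ± 0.12 (edgeR adjusted p = 0.033). Neither call held without either control library, either line 2 library (0.37 to 0.62 for line 2 against control) or the kit term, and the second was also lost without the line 1 SMARTer library, with edgeR adjusted p between 0.065 and 0.31 for these fits. The rise in line 2 also missed the threshold with upper quartile scaling (0.49, edgeR adjusted p = 0.0504) and with limma on log2(RPKM + 0.1) (0.54, limma adjusted p = 0.0505).

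Heat shock elements are inverted repeats of a short unit. Among the 63 genes with an entry in the RefSeq promoter table (build GRCh38.p14, 250 bases before the start), 6 or 9.52% held 3 such units in a row, read as GAA, any 2 bases, TTC, any 2 bases and GAA, or on the other strand TTC, any 2 bases, GAA, any 2 bases and TTC. A gene can have several windows: 6 of the 82 windows of these genes (7.32%) held the element, against 0.441% of all 35116 windows. They were HSP90AA1, HSP90AB1, HSPA8, HSPD1, HSPA6 and DNAJB6. DESeq2 called HSPA6 lower over both lines and in line 2, and HSP90AB1 lower in line 1 than in line 2. None of the 6 passed the edgeR threshold in a comparison of lines, where 12.8% to 14.2% of all genes did. The 6 genes are too few to set against that share. Each match is shown 5′ to 3′ on the strand of its gene with 8 bases on either side and matched bases in capitals, because these genes include the 4 most abundant chaperone transcripts. The position on GRCh38.p14 stands in parentheses, and the HSPD1 stretch holds 2 matches that overlap. A match describes the letters in the window and does not show that a factor binds there.
HSP90AA1 (chr14:102087112-102087140, minus strand): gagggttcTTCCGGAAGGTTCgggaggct
HSP90AB1 (chr6:44247770-44247798, plus strand): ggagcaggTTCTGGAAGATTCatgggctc
HSP90AB1 (chr6:44247823-44247851, plus strand): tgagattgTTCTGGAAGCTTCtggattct
HSPA8 (chr11:123062171-123062199, minus strand): cgggccccTTCTGGAAGGTTCtaagatag
HSPA8 (chr11:123062346-123062374, minus strand): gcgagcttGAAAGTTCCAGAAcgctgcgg
HSPD1 (chr2:197500060-197500088, minus strand): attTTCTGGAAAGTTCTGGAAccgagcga
HSPA6 (chr1:161524458-161524486, plus strand): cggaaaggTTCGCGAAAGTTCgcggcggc
DNAJB6 (chr7:157336865-157336893, plus strand): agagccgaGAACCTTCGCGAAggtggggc

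HSP90 of the cytosol is made from HSP90AA1, the inducible gene, and HSP90AB1, the constitutive one. HSP90AA1 was at 366 and 835 RPKM in the control, 592 and 791 in line 1, 617 and 922 in line 2, with 642 in the ARID1A+/- library. The control SMARTer library was the lowest of the 7, and the line 1 values lay within the range of the control. HSP90AB1 was at 497 and 660 RPKM in the control, 451 and 530 in line 1, 695 and 768 in line 2, with 476 in the ARID1A+/- library, with both line 2 libraries above the other 5. Neither gene passed the threshold in any comparison of lines. The difference of HSP90AB1 between line 1 and line 2 was -0.54 ± 0.14 on the log2 scale (edgeR adjusted p = 0.050, just over the threshold, lower in line 1 in 2 of 2 pairs), and DESeq2 called it.

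The HSP70 genes of the cytosol and nucleus contained the deepest difference of the family. HSPA2, needed for male germ cell development, was at 3.62 and 4.91 RPKM in the control, 3.07 and 4.23 in line 1, 0.0519 and 0.0244 in line 2, with 2.47 in the ARID1A+/- library. Line 2 lay far below every other library, and control and line 1 overlapped. The 2 libraries of line 2 held 8 counts of HSPA2 together against 790 in the control, a ratio of 105 between control and line 2 (95% exact binomial interval 52.8 to 243, counting error only). In line 2 HSPA2 fell by 6.69 ± 0.37 on the log2 scale (lower in 2 of 2 pairs; edgeR adjusted p = 0.00036) and was at -0.22 ± 0.24 in line 1 (edgeR adjusted p = 0.58). Line 1 exceeded line 2 by 6.46 ± 0.37 (edgeR adjusted p = 0.00040). Over both lines HSPA2 fell by 3.45 ± 0.25, the mean of these unlike values. The calls of HSPA2 over both lines, in line 2 and between the lines held in every alternative fit and without each library in turn.

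HSPA1B encodes the classical stress-inducible HSP70. It was at 12.0 and 19.4 RPKM in the control, 3.68 and 13.8 in line 1, 8.69 and 32.4 in line 2, with 15.0 in the ARID1A+/- library. Within each of the 3 replicated lines the KAPA library was higher, and line 1 was the lowest line in the SMARTer and in the KAPA libraries. Against control, line 1 was at -1.13 ± 0.30 on the log2 scale (edgeR adjusted p = 0.056, not past the threshold; lower in 2 of 2 pairs; called by DESeq2) and line 2 at 0.07 ± 0.30. Line 1 minus line 2 was -1.20 ± 0.30 (lower in 2 of 2 pairs; edgeR adjusted p = 0.045). This call did not hold without the line 1 SMARTer library (-0.96, edgeR adjusted p = 0.067) or the line 2 KAPA library (-0.82, edgeR adjusted p = 0.26), nor under limma or 3 other settings.

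HSPA1A, the near-identical neighbour of HSPA1B, had between 0 and 15 counts per library. Of the 75-base stretches in HSPA1B transcripts (GENCODE annotation), 70.1% also occurred in HSPA1A, so a 75-base read often fits both genes. How such reads were assigned is not given in the sources used here, and the split between the pair is uncertain. HSPA1L, a testis HSP70 of the same cluster, had 0.441 to 4.18 RPKM and followed the same order of libraries as HSPA1B at its extremes, lowest in the line 1 SMARTer library and highest in the line 2 KAPA library. It passed the threshold in no comparison of lines (-0.90 ± 0.40 in line 1 against line 2; edgeR adjusted p = 0.20). Whether reads were counted by strand is likewise not given.

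HSPA8, the constitutive HSP70, which also uncoats clathrin vesicles, was at 198 and 416 RPKM in the control, 321 and 493 in line 1, 199 and 485 in line 2, with 381 in the ARID1A+/- library. In the SMARTer libraries line 1 stood above the control and line 2, while the KAPA values of the ARID1A-/- lines lay within 0.02 of each other on the log2 scale. No comparison of lines passed the threshold (0.49 ± 0.19 in line 1; edgeR adjusted p = 0.15). HSPA14, a ribosome-associated HSP70, ranged from 6.39 to 8.57 RPKM and was also not called. HSPA6, a gene strictly induced by severe stress, had 379 counts in the control SMARTer library and 10 to 30 in each of the other 6. It passed the filter on mean RPKM only through that library (3.27 RPKM), as every other library was at or below 0.355 RPKM. The control SMARTer library exceeded the control KAPA library 24.1-fold (95% exact binomial interval 13.0 to 50.6, counting error only). HSPA7, annotated as its pseudogene, had 137 counts there and 2 to 10 elsewhere, and 43.4% of its 75-base stretches also occurred in HSPA6. The fitted value of HSPA6 over both lines, -2.78 ± 1.10, was not past the threshold in edgeR (adjusted p = 0.15) but was called by DESeq2, and within the KAPA libraries both ARID1A-/- lines were higher than the control (log2 1.20 and 0.68). Of other genes that heat induces, DNAJB1, HSPA1B and HSPB1 had their highest RPKM of the 3 SMARTer libraries in that of the control, and HSP90AA1 and HSPH1 their lowest.

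Of the 3 HSP110 exchange factors, HSPH1 was at 36.4 and 89.5 RPKM in the control, 38.3 and 92.6 in line 1, 36.8 and 89.4 in line 2, with 84.1 in the ARID1A+/- library. The 3 SMARTer values lie together and the 4 KAPA values lie together, with a difference between both lines and control of 0.02 ± 0.10 (log2; edgeR adjusted p = 0.93). HSPA4 (23.3 to 53.5 RPKM) and HSPA4L (1.97 to 5.05 RPKM) were at 0.04 ± 0.11 and 0.02 ± 0.22 in the same comparison. By edgeR and DESeq2, 0 of the 3 were called in a comparison of lines, and 0 had an unadjusted p under 0.05. Of all genes, edgeR called 12.8% to 14.2% in these comparisons, and 3 genes are too few to set against that share.

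Of the 8 small heat shock protein genes only HSPB1 and HSPB11 were abundant enough to test. HSPB1, which holds unfolded proteins and binds actin, was at 18.6 and 7.34 RPKM in the control, 7.05 and 3.32 in line 1, 2.95 and 1.68 in line 2, with 3.90 in the ARID1A+/- library. Within each kit the order was control, line 1, line 2, and the 3 groups did not overlap, although the control KAPA library was only slightly above the line 1 SMARTer library. In line 1 HSPB1 fell by 1.28 ± 0.23 (log2; edgeR adjusted p = 0.016) and in line 2 it fell by 2.45 ± 0.25 (edgeR adjusted p = 0.0020), lower in 2 of 2 pairs each. The log2 fold change over both lines was -1.86 ± 0.19 (lower in 4 of 4 pairs; edgeR adjusted p = 0.0018), and line 1 lay above line 2 by 1.17 ± 0.24 (edgeR adjusted p = 0.025). Without the control SMARTer library the falls over both lines (-1.67, edgeR adjusted p = 0.071) and in line 1 (-1.08, adjusted p = 0.20) were no longer called, nor was that in line 1 without the control KAPA library (-1.46, adjusted p = 0.069). The difference between the lines lost its call without the control SMARTer library or either line 2 library (0.94 to 1.40). HSPB11, a component of intraflagellar transport despite its name, was at 7.31 and 7.74 RPKM in the control and 10.0 and 9.59 in line 1, and was not called (0.39 ± 0.15 in line 1; edgeR adjusted p = 0.15). HSPB7 was under the filter with 38 and 6 counts in the control, 14 and 5 in line 1, 2 and 0 in line 2, with 0 in the ARID1A+/- library.

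Pairs of heat shock units were searched as well, a search added after the data had been seen. GAANNTTC, which reads the same on both strands and also lies inside the 3-unit element, occurred in 16 of the 82 windows of the chaperone genes (19.5%) against 5.78% of all windows, and TTCNNGAA in 11 (13.4%) against 6.62%. HSPB1 and HSPA1B, 2 of the genes that differed between lines, each held 1 match to GAANNTTC and are shown with the match in capitals. The other genes with GAANNTTC, HSP90AA1, HSPA8, DNAJB1 and DNAJA1 among them, were not called between lines by edgeR or were not tested. Of the other genes called between lines, DNAJC15 held TTCNNGAA. A link between these matches and the differences between lines was not tested. The HSPB1 stretch runs from 250 to 130 bases before the start of the gene and the HSPA1B stretch from 250 to 4 bases before it, both on the plus strand of GRCh38.p14.
HSPB1 (chr7:76302423-76302543): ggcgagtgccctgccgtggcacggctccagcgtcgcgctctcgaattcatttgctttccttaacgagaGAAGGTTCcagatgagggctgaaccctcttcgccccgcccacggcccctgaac
HSPA1B (chr6:31827488-31827734): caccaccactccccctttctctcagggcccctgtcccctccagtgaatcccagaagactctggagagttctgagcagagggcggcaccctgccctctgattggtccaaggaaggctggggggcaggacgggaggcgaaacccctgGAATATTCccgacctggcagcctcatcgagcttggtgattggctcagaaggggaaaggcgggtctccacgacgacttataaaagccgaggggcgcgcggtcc

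Class A J proteins carry a zinc-binding region and feed clients to HSP70. DNAJA2 was at 29.1 and 42.5 RPKM in the control, 13.1 and 16.1 in line 1, 35.0 and 34.8 in line 2, with 35.6 in the ARID1A+/- library. Both line 1 libraries lay below all 5 others, and line 2 lay within the range of the control. In line 1 DNAJA2 fell by 1.27 ± 0.15 on the log2 scale (lower in 2 of 2 pairs; edgeR adjusted p = 0.0035), was at -0.05 ± 0.14 in line 2 (edgeR adjusted p = 0.86), and line 1 minus line 2 was -1.23 ± 0.15 (edgeR adjusted p = 0.0044). The line 1 fall and the difference between the lines kept their calls in every alternative fit and without each library in turn. The fall over both lines (-0.66 ± 0.12, lower in 3 of 4 pairs; edgeR adjusted p = 0.017) did not, and was at -0.88 and -0.46 without the control SMARTer and KAPA libraries and -0.57 without the line 2 KAPA library. DNAJA1, the most abundant J protein gene here, was at 96.4 and 135 RPKM in the control, 105 and 156 in line 1, 78.9 and 133 in line 2, with 154 in the ARID1A+/- library. Its groups overlapped and it was at -0.01 ± 0.11 over both lines (edgeR adjusted p = 0.97).

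**Figure D3:**
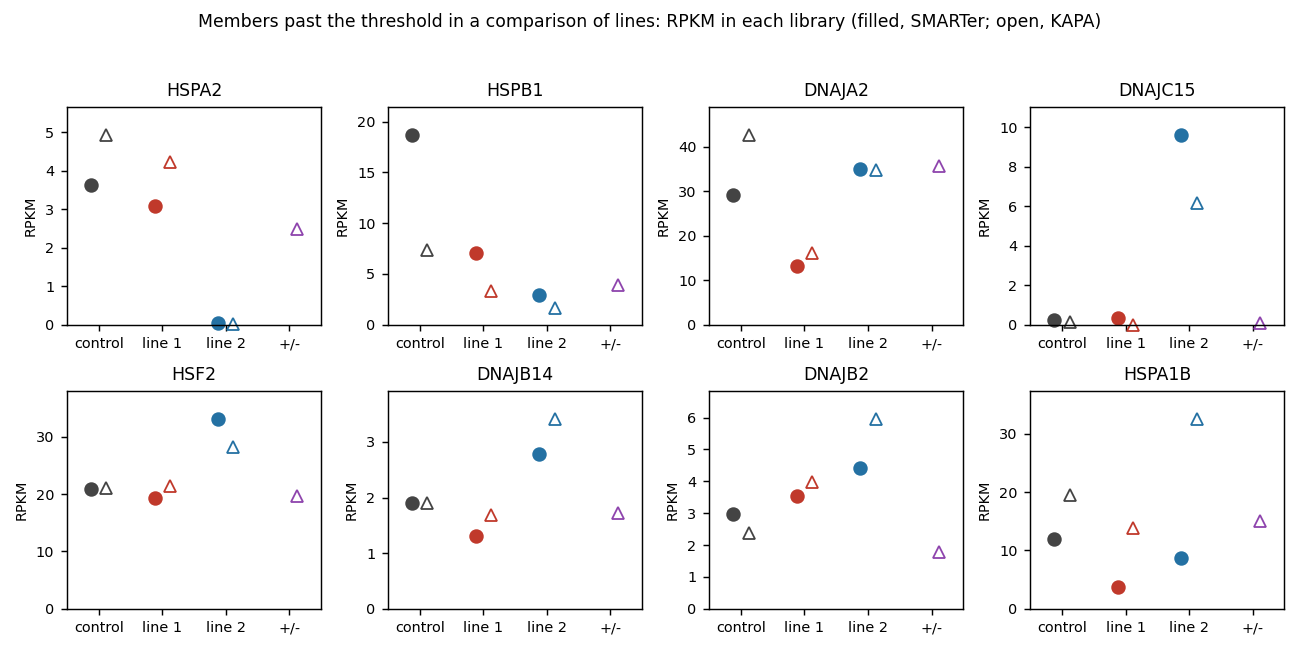
RPKM of the 8 genes that passed the threshold in at least 1 comparison of lines, by line, with the SMARTer library as a filled circle and the KAPA library as an open triangle; each axis starts at 0. HSPA2 is near 0 in line 2 only, DNAJC15 is near 0 everywhere but line 2, DNAJA2 is low in line 1, and HSPB1 falls from control to line 1 to line 2 within each kit.

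Among the class B J proteins, 6 of 9 were tested. DNAJB1, a heat-induced partner of HSP70 that also restrains HSF1, was at 66.0 and 58.2 RPKM in the control, 36.0 and 68.1 in line 1, 36.5 and 84.1 in line 2, with 62.2 in the ARID1A+/- library. The SMARTer libraries of both ARID1A-/- lines lay below their control and the KAPA libraries above it, and no comparison was called (-0.30 ± 0.27 over both lines; edgeR adjusted p = 0.51). DNAJB2, a J protein enriched in neurons that links clients to the proteasome, was at 2.98 and 2.39 RPKM in the control, 3.55 and 3.96 in line 1, 4.41 and 5.94 in line 2, with 1.79 in the ARID1A+/- library. The 3 groups did not overlap, with the ARID1A+/- library lowest of all. It rose in line 2 by 0.89 ± 0.23 (log2, higher in 2 of 2 pairs; edgeR adjusted p = 0.046) and was at 0.47 ± 0.22 in line 1 (edgeR adjusted p = 0.21). The line 2 call was lost without either control library (1.19 and 0.59), without the line 2 KAPA library (0.60), and under 3 other settings (0.87 to 0.89).

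The J proteins of class C share only the J domain and have varied tasks. Of the 14 that fall in no organelle group here, 13 were tested and 0 were called by edgeR in any comparison of lines, with at most 3 at an unadjusted p under 0.05 in one comparison. Of all genes, edgeR called 12.8% to 14.2% in these comparisons. DESeq2 called DNAJC12 lower in both comparisons that include line 2 against control, and DNAJC13 higher in line 2. DNAJC12, which assists the aromatic amino acid hydroxylases, was at 36.3 and 35.8 RPKM in the control, 24.4 and 32.2 in line 1, 26.3 and 16.6 in line 2, with 29.1 in the ARID1A+/- library. All ARID1A mutant libraries lay below the control (-0.57 ± 0.19 over both lines, lower in 4 of 4 pairs), without passing the threshold (edgeR adjusted p = 0.097). DNAJC13, which acts on endosomes, was at 0.40 ± 0.12 over both lines (edgeR adjusted p = 0.065). The abundant DNAJC8 and DNAJC7 ranged from 79.5 to 98.8 and from 64.5 to 96.5 RPKM.

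Chaperones of the endoplasmic reticulum form a separate system that answers to unfolded secretory proteins. HSPA5, the HSP70 of that compartment, was at 69.4 and 97.2 RPKM in the control, 94.4 and 116 in line 1, 66.9 and 98.3 in line 2, with 118 in the ARID1A+/- library. HSP90B1, its HSP90, was at 78.1 and 127 RPKM in the control, 112 and 129 in line 1, 77.5 and 107 in line 2, with 124 in the ARID1A+/- library. In both genes line 1 was higher than control in 2 of 2 pairs, by 0.36 ± 0.13 and 0.28 ± 0.15 on the log2 scale, but neither passed the threshold (edgeR adjusted p = 0.13 and 0.275). HSPA5 in line 1 minus line 2 was 0.41 ± 0.13 (higher in 2 of 2 pairs; edgeR adjusted p = 0.094), which DESeq2 called. These 2 were also the only genes of the family whose windows held the ER stress element, CCAAT and CCACG with any 9 bases between them (CGTGG and ATTGG on the other strand), which was found in 0.0740% of all windows. The matches are shown in capitals on the strand of the gene, with GRCh38.p14 positions.
HSPA5 (chr9:125241386-125241414, minus strand): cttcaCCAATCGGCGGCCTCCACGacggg
HSP90B1 (chr12:103930211-103930239, plus strand): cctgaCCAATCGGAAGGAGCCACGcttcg
HSP90B1 (chr12:103930316-103930344, plus strand): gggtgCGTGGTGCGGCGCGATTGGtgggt

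Over both lines edgeR called 14.2% of all 14711 genes, DESeq2 2617 of them and limma on log2(RPKM + 1) 1651. Of the 13 endoplasmic reticulum chaperones 0 were called by edgeR, DESeq2 or limma, and 0 had an unadjusted p under 0.05. Whether 0 of 13 differs from the share of all genes was not tested. In line 2 edgeR called 1 of the 13, or 7.69%, against 14% of all genes. This was DNAJB14, a membrane J protein that recruits HSP70 on the cytosolic side. It was at 1.90 RPKM in both control libraries, 1.31 and 1.69 in line 1, 2.78 and 3.40 in line 2, with 1.73 in the ARID1A+/- library, so line 2 lay above all other libraries. It rose in line 2 by 0.65 ± 0.16 (log2, higher in 2 of 2 pairs; edgeR adjusted p = 0.039), and the values in line 1 were lower by 1.00 ± 0.16 than in line 2 (edgeR adjusted p = 0.010). The rise in line 2 was not called without either control library or either line 2 library (0.48 to 0.80) nor by limma, and the difference between the lines lost its call only without the line 2 KAPA library (-0.90, edgeR adjusted p = 0.080).

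In mitochondria, HSPA9 pulls proteins through the inner membrane and HSPD1 with its lid HSPE1 forms the folding chamber. HSPA9 was at 207 and 212 RPKM in the control, 169 and 183 in line 1, 220 and 185 in line 2, with 174 in the ARID1A+/- library. HSPD1 was at 168 and 284 RPKM in the control, 145 and 231 in line 1, 156 and 229 in line 2, with 245 in the ARID1A+/- library. HSPE1 ranged from 72.2 to 137 RPKM, both extremes being control libraries. None of the 3 passed the threshold between lines (-0.17 ± 0.11, -0.25 ± 0.10 and -0.06 ± 0.15 over both lines).

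DNAJC15, an inner membrane J protein first known as methylation-controlled J protein, was the only mitochondrial gene of 10 that edgeR called between lines. That is 10% in line 2 against control, where 14% of all genes were called. DNAJC15 passed the filter on mean RPKM only through line 2, the line in which it was high. It was at 0.264 and 0.147 RPKM in the control, 0.331 and 0 in line 1, 9.60 and 6.18 in line 2, with 0.109 in the ARID1A+/- library. Line 2 stood far above all 5 others, which ranged from 0 to 38 counts. The line 2 libraries held 1581 counts against 42 in the control, a ratio of 35.5 (95% exact binomial interval 26.2 to 49.5), and against 38 in line 1, a ratio of 42.5 (30.8 to 60.3). DNAJC15 rose in line 2 by 5.33 ± 0.72 on the log2 scale (higher in 2 of 2 pairs; edgeR adjusted p = 0.0058) and line 1 minus line 2 was -5.69 ± 0.73 (edgeR adjusted p = 0.0056). The rise was not called without the control SMARTer library (4.99, edgeR adjusted p = 0.11) or without the kit term (5.16, adjusted p = 0.067). HSPA2 and DNAJC15 shared no 75-base stretch with any other gene.

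Chaperone genes also differed between the kits, by edgeR at a share near that of all genes. With the line held fixed, 8 of the 59 were lower in SMARTer than in KAPA libraries and 1 was higher (edgeR adjusted p under 0.05), or 15.3%, where 13.3% of all genes differed (7.99% higher, 5.3% lower). In this fit, scaled by TMM, the direction differed from that of all genes: of the genes called, 60.1% were higher in SMARTer over the whole table. With limma on log2(RPKM + 1), 14 of the 59 were lower and 1 higher. In that fit 23.6% of all called genes were higher in SMARTer, so the directions were alike. Counted without a test, 33 of 59 chaperone genes (55.9%) had the lower RPKM in SMARTer in all 3 lines, against 42.4% of all genes, and 5 (8.47%) the higher, against 16.8%. On the log2 scale, SMARTer minus KAPA was -1.11 ± 0.09 for HSPH1 (lower in 3 of 3 lines; edgeR adjusted p = 0.0079), -1.65 ± 0.34 for HSPA1L, -1.33 ± 0.25 for HSPA1B, -0.93 ± 0.17 for DNAJB4 and -0.82 ± 0.16 for HSPA8, with edgeR adjusted p between 0.026 and 0.031 for these 4. HSPA4, HSPD1 and DNAJA1 were lower by 0.73 ± 0.11, 0.49 ± 0.10 and 0.43 ± 0.11. HSPB1 alone went the other way, higher in SMARTer by 1.27 ± 0.19 (3 of 3 lines; edgeR adjusted p = 0.019). Without either control library 0 of the 59, and 0 of all 14711 genes, were called between kits, and without either line 2 library 2 of the 59 were. Scaling by total count gave 17 lower and 1 higher, with 24.0% of all called genes higher in SMARTer and the median of all genes moved from 0.01 to -0.16. The kit, the order of the libraries and any difference in culture cannot be told apart.

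**Figure D4:**
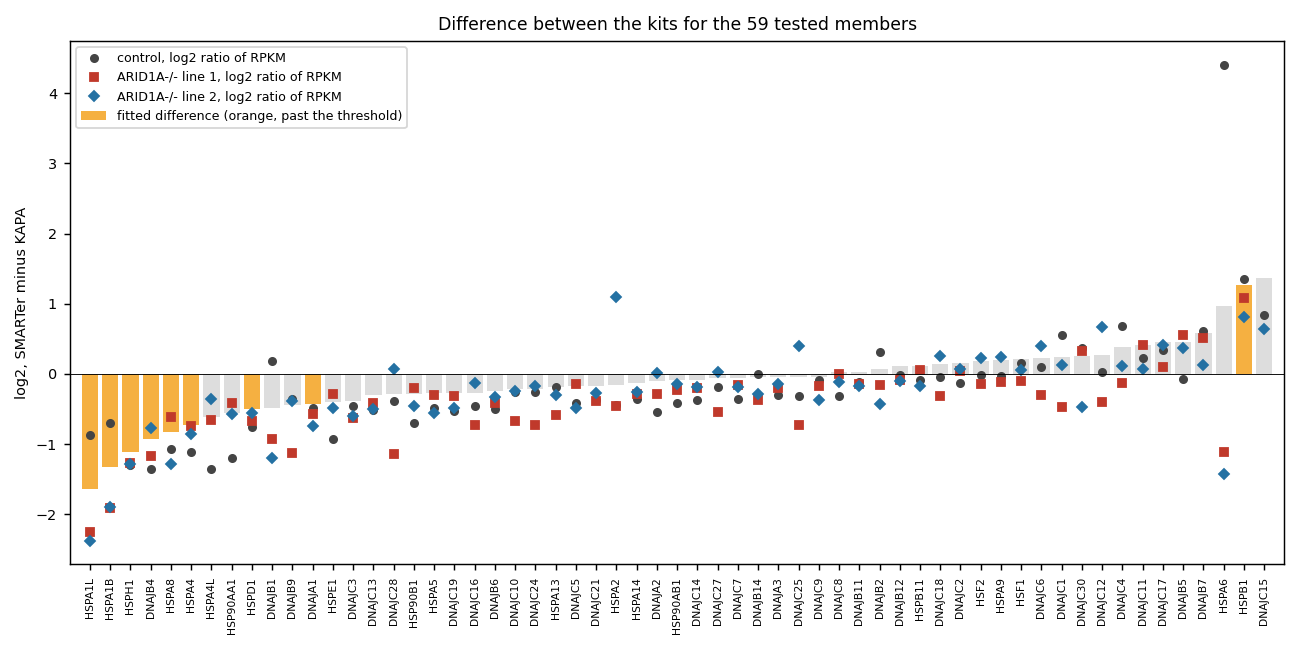
Difference between the SMARTer and KAPA libraries (log2) for the 59 tested genes, in order of the edgeR estimate (bars, orange where past the threshold); points are the log2 ratios of RPKM within the control, line 1 and line 2. The 8 lower bars in orange have all 3 points below 0, HSPB1 has all 3 above 0, and HSPA6 has the control at 4.41 and both ARID1A-/- lines below 0. DNAJC15 has no point for line 1, where the KAPA library held 0 counts.

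The ARID1A+/- line has 1 library, so its differences have no replicate check and no test was made. It was set against the KAPA library of each other line, calling a gene at 2-fold where either library reached 1 RPKM. Against the control, 2 of 56 chaperone genes were lower and 0 higher: HSPA4L (2.09 against 5.05 RPKM, 2.42-fold) and DNAJC28, a mitochondrial J protein (0.732 against 1.51 RPKM, 2.07-fold). Of all genes compared, 8.8% were past this fold (3.87% higher, 4.93% lower). The median log2 ratio of the chaperone genes was -0.18 and that of all genes -0.04. HSPA2 and HSPB1, at 1.99-fold and 1.88-fold below the control, fell just short of the fold, and DNAJA2, HSF2 and HSPA8 were within 1.19-fold of it.

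Against line 1, DNAJA2 was higher in the ARID1A+/- library by 2.21-fold, and DNAJB2 and HSPA4L were lower by 2.22-fold and 2.12-fold, where 13.7% of all genes passed the fold (6.95% higher, 6.7% lower). Against line 2, HSPA2 and HSPB1 were higher and DNAJC15, DNAJB2 and HSPA1B lower, where 15.6% of all genes passed it (7.51% higher, 8.13% lower). The HSPA2 ratio rests on 232 against 2 counts (106-fold, 95% exact binomial interval 28.9 to 877) and that of DNAJC15 on 10 against 496 (54.5-fold, 29.4 to 114). For both genes the ARID1A+/- library was nearer in level to the control and line 1 than to line 2.

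Other folding genes, outside the family, were read from the same fit as lists of partners. Of 25 tested HSP70 and HSP90 cofactors, 3 fell over both lines: PTGES3, the HSP90 co-chaperone p23 (-0.57 ± 0.14), AHSA2, related to an activator of the HSP90 ATPase (-0.96 ± 0.25), and CDC37, which brings kinases to HSP90 (-0.36 ± 0.09; edgeR adjusted p = 0.040 to 0.049). That is 12% of the list, against 14.2% of all genes tested. DESeq2 called the same 3 genes, and limma on log2(RPKM + 1) called 0 of the 25. PTGES3 was at 148 and 306 RPKM in the control, 89.1 and 132 in line 1, and 166 and 231 in line 2, and its value of -0.98 ± 0.16 in line 1 (log2; edgeR adjusted p = 0.013) differed from that in line 2 (line 1 minus line 2 -0.81 ± 0.16, edgeR adjusted p = 0.023). Between kits 6 of the 25 were lower in SMARTer and 0 higher, led by CHORDC1, an HSP90 partner (-1.32 ± 0.16), where 13.3% of all genes differed (5.3% lower). Of 14 chaperonin and prefoldin genes, edgeR called 1 over both lines, or 7.14%, against 14.2% of all genes. This was PFDN4 (-0.92 ± 0.15, edgeR adjusted p = 0.011), which fell in both lines. It was at 31.0 and 31.9 RPKM in the control and 14.2 to 19.3 in the 4 ARID1A-/- libraries. In line 2 edgeR called PFDN2 and PFDN4 lower, or 14.3% of the list, against 14% of all genes. Between the lines it called PFDN2, higher in line 1, or 7.14%, against 12.8% of all genes.

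Of 12 mitochondrial partners, 2 fell and 1 rose in line 1 by edgeR, or 25%, against 13% of all genes. In line 2, 0 of the 12 passed the threshold by edgeR, DESeq2 or limma, and 0 had an unadjusted p under 0.05. Of all genes, edgeR called 14% in line 2. Whether the list differs from these shares was not tested. TRAP1, the mitochondrial HSP90, was at -0.77 ± 0.12 in line 1 (edgeR adjusted p = 0.011) and -0.26 ± 0.12 in line 2 (edgeR adjusted p = 0.21), and the lines differed (-0.51 ± 0.12, edgeR adjusted p = 0.040). Its call over both lines (-0.51 ± 0.10, edgeR adjusted p = 0.023) is the mean of these unlike values. CLPB, a mitochondrial disaggregase, rose in line 1 by 0.69 ± 0.15 (23.8 and 25.5 RPKM against 15.3 in both control libraries; edgeR adjusted p = 0.028). GRPEL1, the exchange factor of HSPA9, in line 1 fell by 0.96 ± 0.17 (8.52 and 8.99 RPKM against 13.8 and 21.1 in the control; edgeR adjusted p = 0.015). Of 18 folding factors of the endoplasmic reticulum 0 were called over both lines by edgeR, against 14.2% of all genes. At an unadjusted p under 0.05, 1 was higher and 1 lower by edgeR, and DESeq2 called SERPINH1 higher. SERPINH1, the collagen chaperone, rose in line 1 by 0.67 ± 0.15 (edgeR adjusted p = 0.035), the line in which the fibroblast marker sum was highest; the part of that sum in the result was not tested. HSF4 and HSPBAP1, the 2 tested genes of a list of alpha crystallins and other heat shock genes, were not called between lines at an unadjusted p under 0.05.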

How the data were processed

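Gene-level tables for 7 RNA libraries of NGP cells were used. The submitters' processing notes name HISAT2 2.1.0 and the build hg19. How reads were counted, with which annotation and whether by strand, is not given in the sources used here. The authors deposited for each library whole-number counts, an entry length and RPKM, which equals the count over length and library total to within 0.000501%. Per the labels' protocols, reads were single-end, 75 bases.

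The filter kept 14711 of 28517 genes, those averaging 0.5 RPKM or more in the 6 libraries of the control and the ARID1A-/- lines. Counts were tested with edgeR 4.0.16 (R 4.3.3; quasi-likelihood, TMM scaling, terms for 3 groups and the kit, 2 residual degrees of freedom), which was first tested on simulated data. P-values were adjusted by Benjamini-Hochberg over all kept genes. Standard errors are the log2 fold change over the square root of F. The ARID1A+/- library was compared by RPKM without a test. Alternatives were DESeq2 1.42.0, limma 3.58.1 on log2(RPKM + 1) and log2(RPKM + 0.1), no kit term, other scalings and filters, and each library left out in turn.

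The kit is a batch named in the labels and shared by same-numbered libraries. Their differences from the group means moved together: SMARTer minus KAPA differences correlated across the 14711 genes at 0.51, 0.63 and 0.45 for the 3 pairs of groups. Libraries of a group did not repeat each other's counts.

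The genes and lists were chosen with earlier results of these data known. Genes are named where they passed the threshold between lines, were among the 5 furthest in each direction between kits, passed the fold in the ARID1A+/- library, or belong to 16 major chaperones and factors. HSPA4, HSPA6, HSPA7, HSPA1L, HSPB7, HSPB11, HSPA14, DNAJC12, DNAJC13, DNAJC7 and DNAJC8 were named after their values were seen. Promoter windows are from RefSeq (GRCh38.p14), and shared stretches of 75 bases were counted in GENCODE transcripts; neither is of the build of the files.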

Additional observations from a re-analysis of the deposited data

Results flagged for a closer look

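The difference between ARID1A-/- line 1 and line 2 was tested directly in the edgeR model, and 7 chaperone genes passed the threshold. Given as line 1 minus line 2 on the log2 scale, the differences were 6.46 for HSPA2, 1.17 for HSPB1, -5.69 for DNAJC15, -1.23 for DNAJA2, -1.20 for HSPA1B and -0.55 for HSF2. DNAJB14 values in line 1 were lower by 1.00. DNAJC15 passed the filter on mean RPKM only through line 2. For HSPB1 both lines lay below the control and line 2 lay lower. DNAJB14 was at -0.35 ± 0.16 in line 1 and 0.65 ± 0.16 in line 2, on opposite sides of the control in 2 of 2 pairs each. Those of HSPA2 and DNAJA2 kept their calls in all 15 alternative fits of this comparison, and DNAJC15 lost its call only without the kit term.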

How the results depend on the processing

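The number of chaperone genes called moved by more than 1.5 times in these cases. Over both lines 3 became 6 with DESeq2 and 6 without a filter, where 22631 genes were tested. Over all genes 2090 became 2617 with DESeq2 and 3147 without a filter. Between kits 9 became 18 with total count scaling and 15 with either limma fit. Over all genes 1954 became 2832 with total count scaling and 2580 and 2581 with limma. In the ARID1A+/- library 2 became 4 at a fold of 1.5 and 1 with TMM-scaled RPKM. Leaving out each library in turn gave 1 to 11 genes over both lines, 1 to 11 in line 1, 2 to 8 in line 2, 3 to 12 between the lines and 0 to 15 between kits.

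Without the kit as a replicate block, 1 gene was called over both lines (HSPA2), 1 in line 1 (DNAJA2), 1 in line 2 (HSPA2) and 3 between the lines (HSPA2, DNAJA2 and DNAJB14). Over all genes 592 were called over both lines without the block and 2090 with it. All other calls between lines were lost without the block.

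Values near 0 changed sign in both lines against control. DNAJA1 went from -0.01 to 0.0041 without the block, 0.0045 with total count scaling, 0.016 without a filter and 0.0048 and 0.0047 with limma, and HSPH1 from 0.02 to -0.00022 with upper quartile scaling. Leaving out 1 library also turned the sign of 8 uncalled genes in that comparison: the values ran from -0.10 to 0.057 for DNAJA1, -0.89 to 0.35 for DNAJB1, -0.0016 to 0.70 for HSP90AA1, -0.083 to 0.15 for HSP90AB1, -0.15 to 0.23 for HSP90B1, -1.11 to 0.088 for HSPA1B, -0.34 to 0.21 for HSPE1 and -0.0095 to 0.038 for HSPH1. With 2 residual degrees of freedom and 1 control line, a change shared by both ARID1A-/- lines and a property of the control line cannot be told apart.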

Other observations

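HSPB7, a small heat shock protein of muscle that lay under the filter, was called when no filter was applied, lower by 2.67 ± 0.65 on the log2 scale over both lines (edgeR adjusted p = 0.021) and by 4.27 ± 0.92 in line 2 (edgeR adjusted p = 0.012), on 38 and 6 counts in the control. Of the 73 genes, 8 shared over 10% of their 75-base stretches with another gene, among them HSPA1A, HSPA1B, HSPA6, HSPA7, HSPB2, DNAJC14, DNAJB3 and DNAJC25, and their values depend on how shared reads were assigned. DNAJA2, DNAJC15, HSPA2 and DNAJB2 shared none.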
